A study of Sus scrofa with 9 samples.

Results

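KLF4 and KLF2 are Krüppel-like zinc finger transcription factors, here measured by 9 array probes in T cells sorted from sow blood into 3 fractions. A probe was taken as a member when its sequence accession was that of pig KLF4 or KLF2 in RefSeq, which gave 7 KLF4 probes and 2 KLF2 probes among the 43603 probes of the array. All 9 were tested, out of 16024 tested probes. DP cells below are those sorted as CD3+CD4+CD8+. Those sorted as CD3+CD4+ are named CD4 cells, and those sorted as CD3+CD8+ are named CD8 cells. Each had 3 arrays (n = 3), which the series calls biological replicates. No treatment is named, and the number of sows, their age, breed and the purity of the fractions are details not given in the sources used here. Gates name the markers carried and not those lacked, so each fraction is what its sort gave. Nothing in the labels says which arrays came from separate sows, so p-values measure the spread between these arrays.

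KLF2 keeps resting T cells out of the cell cycle in the mouse and switches on S1PR1, a receptor that lets naive T cells leave the thymus. KLF4 restrains division of CD8 T cells in the mouse, where the factor ELF4 stands upstream of it. KLF4 also drives the maturation of monocytes. Both genes respond to the MEK5-ERK5 kinase pathway through MEF2 factors, and both are lost or reduced when T cells are activated.

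A level is log2 of the background-corrected signal minus log2 of the 75th percentile of that array, so that 0 is the brightness at that percentile. That percentile was a signal of 19.0 to 42.5 on DP arrays, 15.2 to 84.1 on CD4 arrays and 18.4 to 29.7 on CD8 arrays. The share of probes well above background was 38.1% to 45.8% on DP arrays, 32.6% to 53.7% on CD4 arrays and 33.8% to 45.5% on CD8 arrays. The number of arrays limits the precision. DP array 1 lay alone on slide 1. Slide 2 held DP array 2, CD4 array 2 and CD8 arrays 1 and 2, and slide 3 held DP array 3, CD4 arrays 1 and 3 and CD8 array 3. The T cell genes CD3D, CD3E, CD3G, CD247 and LCK were well above background on all 9 arrays. CD4 stood at 2.14 ± 0.91 in DP cells, 1.92 ± 0.44 in CD4 cells and -2.04 ± 1.24 in CD8 cells, and CD8A at 3.47 ± 0.76, 0.27 ± 0.67 and 5.35 ± 0.57 in the same order (mean ± SD, n = 3 each). CD4 was well above background on 1 of 3 CD8 arrays.

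KLF4 was chosen by its measured differences on these arrays, where it was already known to be higher in DP cells and in CD4 cells than in CD8 cells. Its values are therefore a description, given without a p. Its brightest probe, A_72_P577783, stood at 2.76, 3.41 and 3.75 on DP arrays 1, 2 and 3. It stood at 2.49, 2.95 and 2.10 on CD4 arrays 1, 2 and 3, and at 0.28, 0.52 and -0.32 on CD8 arrays 1, 2 and 3. Every DP and CD4 array lay above every CD8 array, while DP and CD4 arrays overlapped. The order was DP cells (3.31 ± 0.50), CD4 cells (2.51 ± 0.43), then CD8 cells (0.16 ± 0.43, SD, n = 3 each), and the first 2 did not differ beyond their spread. The fitted difference was 3.14 between DP cells and CD8 cells (SE 0.43, an 8.84-fold ratio). It was 2.35 between CD4 and CD8 cells (SE 0.43, 5.10-fold) and 0.79 between DP cells and CD4 cells (SE 0.43, 95% interval -0.13 to 1.71). In sorted bulk cells, fewer KLF4-expressing cells and less KLF4 RNA per cell cannot be told apart.

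**Figure D1:**
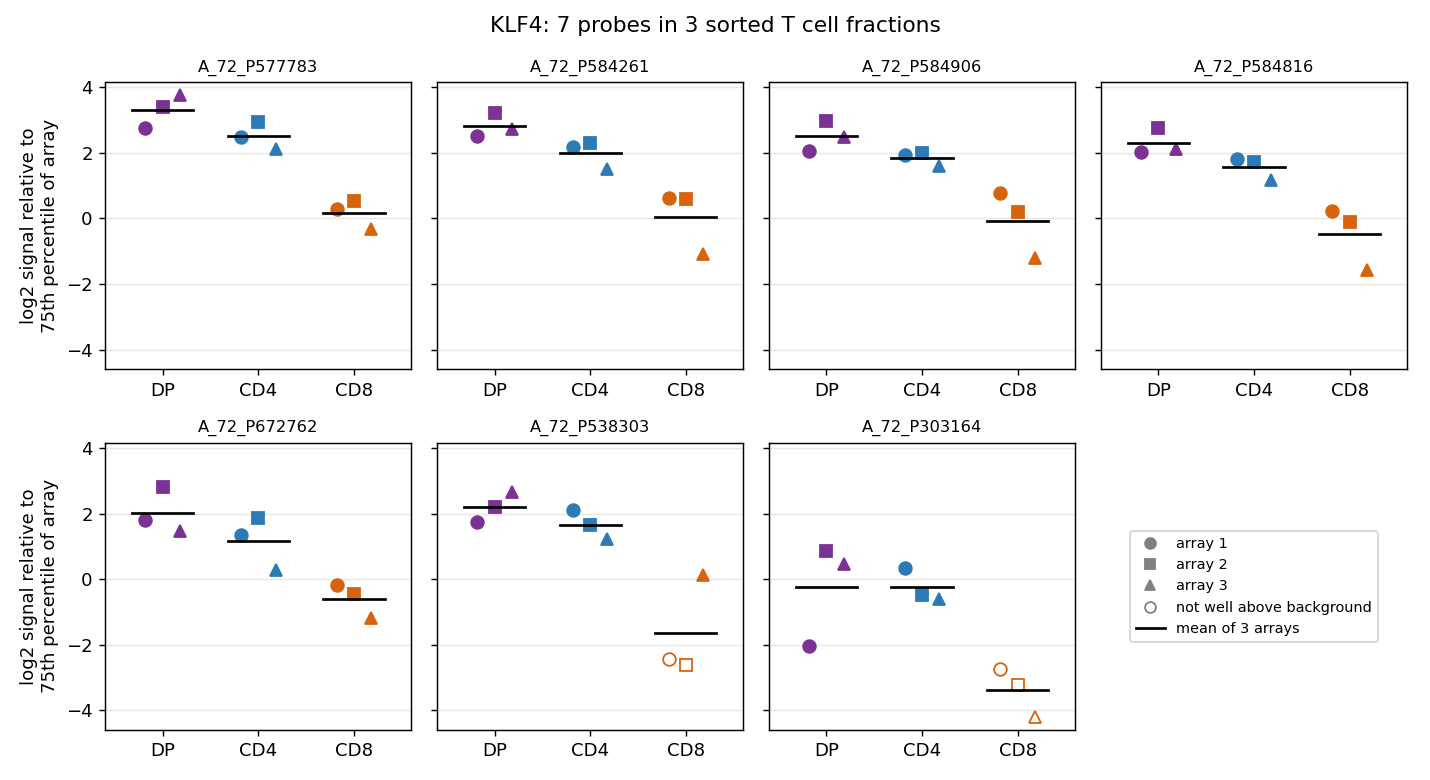
Level of each of the 7 KLF4 probes on every array (log2 signal relative to the 75th percentile of the array), by fraction, with array number as marker shape, open markers for spots not well above background and bars for the mean of 3 arrays. For all 7 probes the DP and CD4 arrays lie above the CD8 arrays; A_72_P538303 has 1 CD8 array at 0.13 and the others at -2.44 and -2.62.

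The second probe, A_72_P584261, stood at 2.5, 3.20 and 2.72 on DP arrays, 2.17, 2.30 and 1.52 on CD4 arrays and 0.63, 0.59 and -1.08 on CD8 arrays. A_72_P584906 stood at 2.06, 2.97 and 2.48 on DP arrays, 1.92, 2.00 and 1.59 on CD4 arrays and 0.76, 0.18 and -1.21 on CD8 arrays. A_72_P584816 stood at 2.03, 2.77 and 2.10 on DP arrays, 1.80, 1.71 and 1.16 on CD4 arrays and 0.23, -0.11 and -1.57 on CD8 arrays. In these 3 probes CD8 array 3 was the lowest of all 9 arrays, and the DP arrays lay wholly above the CD4 arrays. A_72_P672762 stood at 1.79, 2.82 and 1.48 on DP arrays, 1.35, 1.85 and 0.29 on CD4 arrays and -0.17, -0.46 and -1.17 on CD8 arrays. Its DP and CD4 arrays overlapped, and its CD8 arrays lay below both.

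The other 2 probes came near background in CD8 cells. A_72_P538303 stood at 1.73, 2.19 and 2.65 on DP arrays, 2.10, 1.65 and 1.21 on CD4 arrays and -2.44, -2.62 and 0.13 on CD8 arrays. In CD8 cells it was well above background only on array 3, which is the array where the other 6 probes were lowest. A_72_P303164, the dimmest, stood at -2.04, 0.87 and 0.47 on DP arrays, 0.33, -0.47 and -0.62 on CD4 arrays and -2.73, -3.22 and -4.19 on CD8 arrays. It was well above background on all 6 DP and CD4 arrays and on no CD8 array, so only a bound can be given: it was at least 2.25-fold higher in DP cells and at least 2.23-fold higher in CD4 cells than in CD8 cells. The bound sets the mean of the brighter fraction against the faintest signal well above background on each CD8 array, or the probe's own signal where that was higher. On DP array 1 this probe lay below every CD4 array, unlike the other 6.

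Over the 5 probes well above background on all 9 arrays the difference between DP cells and CD8 cells ran from 2.59 to 3.14 (6.03-fold to 8.84-fold). Between CD4 and CD8 cells it ran from 1.76 to 2.35 (3.39-fold to 5.10-fold), and between DP cells and CD4 cells from 0.67 to 0.87 (1.59-fold to 1.83-fold). The other 2 probes, with CD8 values at or near background, have no exact size against CD8 cells. The DP arrays did not overlap the CD8 arrays in any of the 7 probes, and 4.59% of all tested probes were higher in DP cells than in CD8 cells without overlap. The CD4 and CD8 arrays did not overlap in 7 of 7 either (3.78% of all tested probes), and the DP and CD4 arrays did not in 3 of 7 (5.21% of all tested probes). The probes share the RNA and the arrays and are not replicates of a fraction.

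Under a limma fit over all 16024 probes with Benjamini-Hochberg adjustment at 0.05, 4 of 7 KLF4 probes were called higher in DP cells than in CD8 cells, where 0.131% of all tested probes were. The count was 1 of 7 for CD4 over CD8 cells, where 0.112% of all tested probes were called higher, and 0 of 7 for DP cells over CD4 cells (0.225% of all tested probes), with none at an unadjusted p under 0.05 either (4.84% of all tested probes). Counted in both directions, 0.312% of all tested probes were called for DP minus CD8, 0.437% for CD4 minus CD8 and 0.293% for DP minus CD4. KLF4 was picked for these contrasts, so nothing is read from its counts beside these shares. Of the 4 called probes A_72_P538303 passed the filter through DP and CD4 cells alone. The 4 calls against CD8 cells dropped to 0 without DP array 1, DP array 2 or CD8 array 2. Over all tested probes the 50 calls of DP minus CD8 dropped to 1, 9 and 3 in these refits. The KLF4 calls dropped to 1 without DP array 3, CD4 array 2 or CD8 array 1 (32, 15 and 21 over all tested probes). They dropped to 2 without CD4 array 3 or CD8 array 3 (25 and 18 over all tested probes). The single call of CD4 over CD8 cells was lost without any 1 of the 3 CD4 arrays, CD8 array 1 or CD8 array 2. Without DP array 3, 2 KLF4 probes were called. Over all tested probes the 70 calls of CD4 minus CD8 became 41, 39 and 47 without CD4 arrays 1, 2 and 3. They became 38, 31 and 83 without CD8 array 1, CD8 array 2 and DP array 3. The size moved less: without each array in turn the brightest probe gave 2.90 to 3.42 for DP minus CD8 and 2.11 to 2.56 for CD4 minus CD8.

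Within slide 2 the brightest probe was 3.01 higher in DP cells and 2.55 higher in CD4 cells than in CD8 cells, and within slide 3 it was 4.07 and 2.61 higher. Between DP cells and CD4 cells it gave 0.46 within slide 2 and 1.46 within slide 3. With slide as a fixed block, and so with DP array 1 carrying no information, no KLF4 probe was called in any comparison. Over all tested probes that block called 2 for DP minus CD8, 2 for DP minus CD4 and 38 for CD4 minus CD8. Within a slide each value rests on 1 or 2 arrays a fraction.

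The 7 KLF4 probes were set against each other over the 9 arrays. Pearson r over the 21 pairs of probes ran from 0.684 to 0.996 with a median of 0.909. The 9 arrays share the step between CD8 cells and the others, for which KLF4 was picked. With the fraction means taken out, the median over the 21 pairs was 0.632. This r ran from 0.457 to 0.980 over the 15 pairs that leave out A_72_P538303, while all 6 pairs with that probe were below 0, from -0.697 to -0.089. The probe was singled out after its values were seen.

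**Figure D2:**
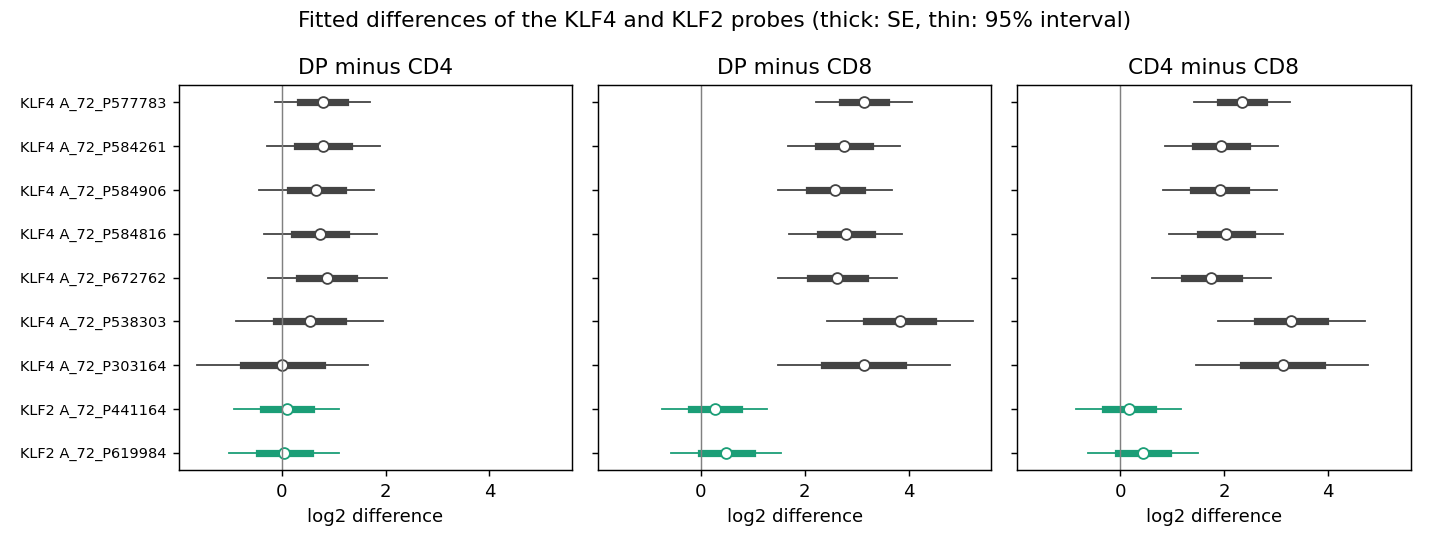
Fitted log2 differences of the 7 KLF4 probes (grey) and 2 KLF2 probes (green) in the 3 comparisons; points are estimates, thick bars the SE and thin bars the 95% interval. The 5 KLF4 probes at the top lie at 2.59 to 3.14 in DP minus CD8 and 1.76 to 2.35 in CD4 minus CD8, the other 2 were at or near background in CD8 cells and have no exact size there, and all KLF2 intervals include 0.

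KLF2 showed no such step. Its brighter probe, A_72_P441164, stood at 7.28, 6.51 and 6.44 on DP arrays 1, 2 and 3. It stood at 6.71, 6.98 and 6.25 on CD4 arrays and at 7.17, 6.93 and 5.33 on CD8 arrays. The 3 fractions overlapped, and CD8 array 3 was the lowest of the 9. The means were 6.74 ± 0.47 in DP cells, 6.65 ± 0.37 in CD4 cells and 6.48 ± 1.00 in CD8 cells (SD, n = 3 each), and no neighbours in this order differed beyond their spread. KLF2 differed by 0.27 between DP cells and CD8 cells (SE 0.47, 95% interval -0.75 to 1.28, limma adjusted p = 1). It differed by 0.17 between CD4 and CD8 cells (SE 0.47, interval -0.85 to 1.18, limma adjusted p = 0.999) and by 0.10 between DP cells and CD4 cells (SE 0.47, interval -0.92 to 1.11, limma adjusted p = 1). A p that misses the threshold does not show equal levels, and the intervals reach 1.28 on the log2 scale.

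**Figure D3:**
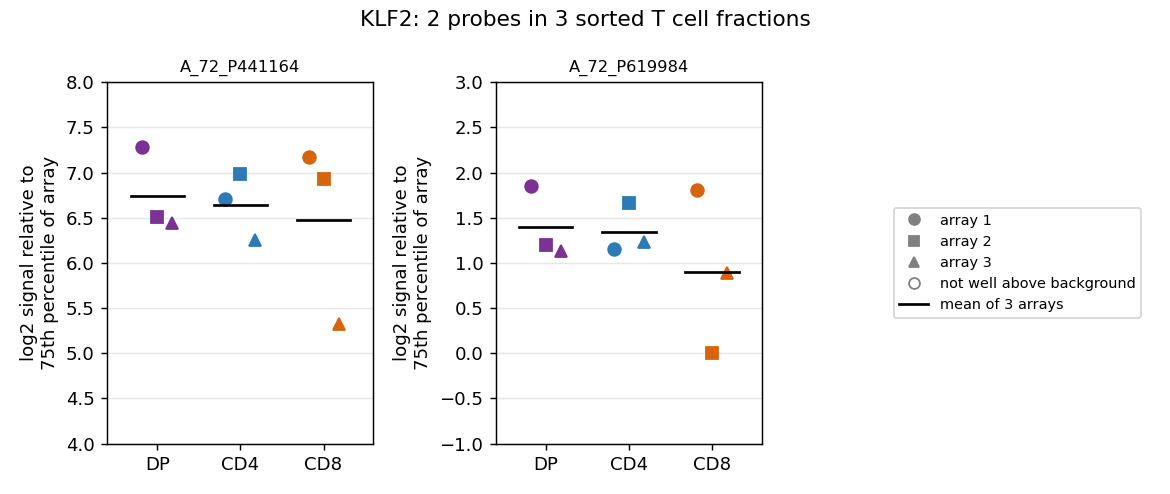
Level of both KLF2 probes on every array (log2 signal relative to the 75th percentile of the array), by fraction, with array number as marker shape and bars for the mean of 3 arrays. The fractions overlap in both probes, and CD8 array 3 is lowest at 5.33 in A_72_P441164 while CD8 array 2 is lowest at 0.00 in A_72_P619984.

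The dimmer KLF2 probe, A_72_P619984, stood at 1.85, 1.20 and 1.13 on DP arrays, 1.15, 1.66 and 1.23 on CD4 arrays and 1.81, 0.00 and 0.89 on CD8 arrays. It too overlapped between all fractions, with differences of 0.49 (SE 0.49) for DP minus CD8, 0.44 (SE 0.49) for CD4 minus CD8 and 0.05 (SE 0.49) for DP minus CD4. Both KLF2 probes were well above background on all 9 arrays. Their r with each other over the 9 arrays was 0.359, and 462 of the 724 genes with at least 2 tested probes (63.8%) had a higher median r. Within slide 3 the brighter probe gave 1.1 for DP minus CD8 and 1.15 for CD4 minus CD8, and within slide 2 it gave -0.54 and -0.07. CD8 array 3 was the 1 CD8 array on slide 3. Without CD8 array 3 the differences against CD8 cells turned to -0.31 for DP cells and -0.40 for CD4 cells.

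Set against each other on the same array, KLF4 minus KLF2 (brightest probes) was -4.52, -3.11 and -2.69 on DP arrays, -4.22, -4.03 and -4.15 on CD4 arrays and -6.89, -6.41 and -5.65 on CD8 arrays. Since probes differ in brightness, only the change of this value between fractions can be read. It was -3.44 ± 0.96 in DP cells, -4.13 ± 0.10 in CD4 cells and -6.32 ± 0.63 in CD8 cells (SD, n = 3 each), and the CD8 arrays lay below all others. A single scaling factor for an array cancels in this value. Over the 9 arrays the r of KLF4 with the brighter KLF2 probe was 0.281.

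Of the 26 KLF and SP family genes listed, 18 had a named probe and 13 were tested. None of the 12 tested genes other than KLF4 was called in any comparison. KLF4 itself was picked for its difference from CD8 cells, so its calls there were fixed by the choice. The median difference of the 13 was 0.33 for DP minus CD8, 0.36 for CD4 minus CD8 and -0.08 for DP minus CD4, beside -0.03, -0.01 and -0.02 over all tested probes. KLF6, an early response factor of many tissues, stood at 6.57 ± 0.42 in DP cells, 5.55 ± 0.32 in CD4 cells and 5.57 ± 1.06 in CD8 cells. Its difference of 1.02 between DP cells and CD4 cells did not pass (limma adjusted p = 1). KLF9, a factor induced by steroid and thyroid hormones, stood at -0.91 ± 0.09 in DP cells, 0.51 ± 0.50 in CD4 cells and -0.69 ± 0.94 in CD8 cells. It had the smallest p of the family between DP cells and CD4 cells (difference -1.42, SE 0.54, limma adjusted p = 0.685).

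**Figure D4:**
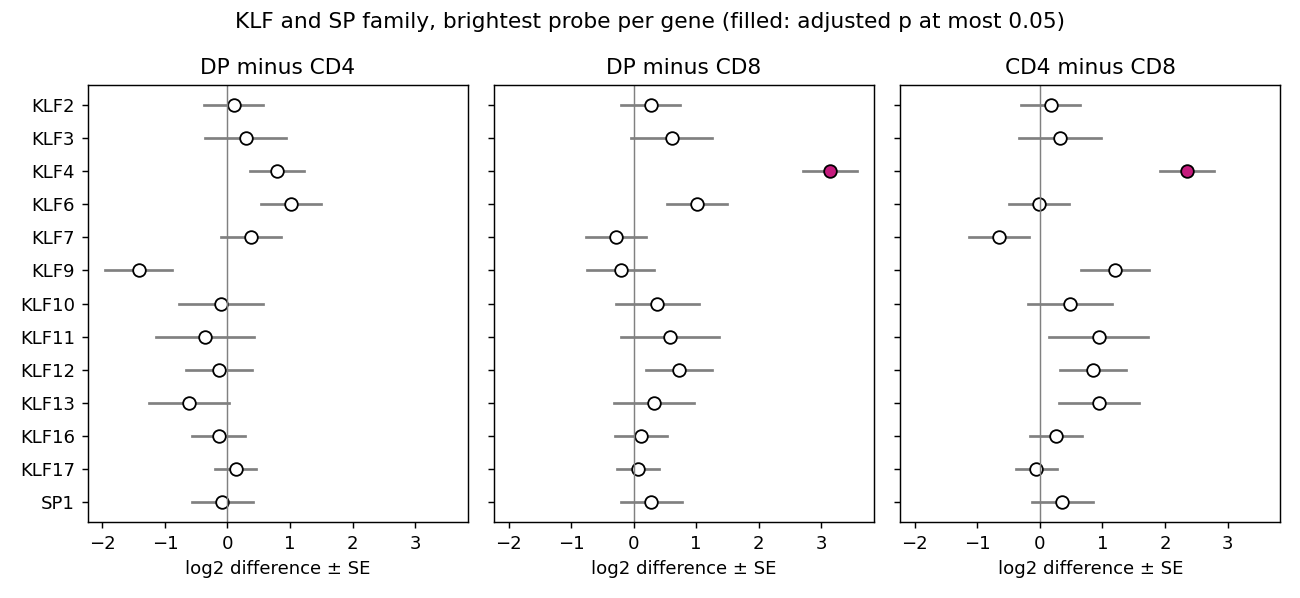
Fitted log2 differences (± SE) of the 13 tested KLF and SP family genes, each by its brightest probe, in the 3 comparisons; filled points passed an adjusted p of 0.05. KLF4 is the filled point at 3.14 in DP minus CD8 and at 2.35 in CD4 minus CD8, the contrasts for which it was picked, and every other point is open.

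Of the other family members, KLF3, which represses transcription with CtBP proteins, gave 0.29 for DP minus CD4, 0.61 for DP minus CD8 and 0.32 for CD4 minus CD8. KLF13, which acts on the CCL5 promoter in human T cells, gave -0.61, 0.33 and 0.94 in the same comparisons. KLF10 gave -0.10, 0.38 and 0.48, KLF11 -0.36, 0.58 and 0.94, and KLF12 -0.13, 0.72 and 0.85. KLF7 gave 0.37, -0.28 and -0.65, KLF16 -0.14, 0.12 and 0.26, and SP1, a widely expressed activator at GC boxes, -0.08, 0.28 and 0.36. None of these passed. On no array were KLF1, KLF5, KLF14 or KLF15 well above background, and KLF8 was well above background on 2 DP arrays, 1 CD4 array and 1 CD8 array and was not tested.

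Genes around KLF2 and KLF4 were counted in lists, most of which held no called gene. These lists, like those of cell markers below, were written with earlier results of these data known. Of 17 listed regulators 6 were tested and none was called in any comparison. Their median difference was -0.14 for DP minus CD4, 0.27 for DP minus CD8 and 0.42 for CD4 minus CD8. The smallest p among them was that of MEF2A, one of the MEF2 factors, for DP minus CD4 (-0.55, SE 0.54), and that of the kinase gene AKT1 for DP minus CD8 (1.61, SE 0.77, limma adjusted p = 0.793). AKT1 was well above background on 1 of 3 CD8 arrays. ELF4 was not analysed here.

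Of 12 listed targets and trafficking genes 7 were tested, and none passed. Their medians were -0.67 for DP minus CD4, -0.55 for DP minus CD8 and -0.07 for CD4 minus CD8. CCR7, the chemokine receptor that guides naive T cells to lymph nodes, gave -1.48 for DP minus CD4 (SE 0.35, limma adjusted p = 0.14) and was lowest on the DP arrays. S1PR1 was not analysed here.

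Of 21 listed genes of T cell quiescence 8 were tested, and none passed. All 8 differences were positive for CD4 minus CD8 (median 0.24, beside -0.01 over all tested probes). For DP minus CD4, 7 of 8 were negative (median -0.43, beside -0.02 over all tested probes). The share of all tested probes with each sign is not given here, so nothing is read from these counts. LEF1, a factor of naive T cells, stood at 6.86 ± 0.29 in DP cells, 8.31 ± 0.47 in CD4 cells and 8.17 ± 0.42 in CD8 cells (SD, n = 3 each). Its DP arrays lay below the others without overlap, and the share of all tested probes that did so is not given here. The differences of LEF1 were -1.45 (SE 0.35, limma adjusted p = 0.147) against CD4 cells and -1.31 (SE 0.35, limma adjusted p = 0.226) against CD8 cells. Its order over the fractions was not that of KLF4. FOXO3, a factor held in the nucleus of resting cells, gave 0.66 for CD4 minus CD8 (limma adjusted p = 0.999). In the cell cycle list 6 of 30 genes were tested, and none passed by its brightest probe. STMN1, a microtubule regulator of dividing cells, gave -1.36 for DP minus CD4 (limma adjusted p = 0.231) and 1.69 for CD4 minus CD8 (limma adjusted p = 0.102). Its 5 tested probes gave 1.64 to 3.01 for CD4 minus CD8, and 1 of them was called. BIRC5, which encodes survivin, gave 2.43 for DP minus CD8 (SE 0.85, limma adjusted p = 0.513), and was well above background on 1 of 3 CD8 arrays. On no array were TOP2A, CCNB2 or CDK1 well above background.

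Immediate early genes are switched on within minutes of a stimulus. Of 21 listed 5 were tested and none passed, with medians of 0.25 for DP minus CD4, 0.31 for DP minus CD8 and 0.40 for CD4 minus CD8. FOS stood at 4.63 ± 0.42 in DP cells, 4.38 ± 0.61 in CD4 cells and 3.23 ± 1.64 in CD8 cells (SD, n = 3 each), with overlap, and gave 1.41 for DP minus CD8 (SE 0.66, limma adjusted p = 0.778). NR4A3, an orphan nuclear receptor gene, gave 0.84 for DP minus CD4 (SE 0.59, limma adjusted p = 1).

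KLF4 acts in the IL-17 programme of helper cells in the mouse. Of 14 listed genes of that programme 3 were tested, while on no array were IL17A, IL21 or IL23R well above background. The 2 called genes were IL6R and IL6ST, chains of the interleukin 6 receptor. Of all tested probes 0.131% were called higher in DP cells and 0.112% higher in CD4 cells than in CD8 cells. IL6R was higher by 3.69 (limma adjusted p = 0.0429) in DP cells and by 3.54 (0.0337) in CD4 cells than in CD8 cells. IL6ST was higher by 2.59 (limma adjusted p = 0.0452) and 3.23 (0.00928). The list was written with earlier results of these data known, so these p-values are a description and no independent test. Only 1 of 3 CD8 arrays had IL6R well above background and 2 of 3 had IL6ST so, which means that both passed the filter through the fractions where they are high and the sizes are not exact. Over all the gene lists other than the family and the cell markers these were the 2 called genes. For DP minus CD8 the count was 1 without CD4 array 1 or CD8 array 3 and 0 without any other 1 array. For CD4 minus CD8 it was 1 without DP array 1, CD4 array 1 or CD4 array 3 and 0 without CD4 array 2, CD8 array 1 or CD8 array 2. The count for DP minus CD8 was also 0 with the 75th percentile taken over probes well above background on all arrays, quantile normalization or the processed table. It was 0 too with only probes well above background on all 9 arrays or with slide as a fixed block. Over all tested probes 22, 39, 24, 5 and 2 were called there in the same order. Without each array in turn, all tested probes gave 1 to 51 calls for DP minus CD8 and 31 to 83 for CD4 minus CD8. STAT3, which carries the signal of that receptor, gave 0.09 for DP minus CD8 and -0.06 for CD4 minus CD8.

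Markers of other cells were read beside KLF4, since monocytes express it. Of 22 monocyte and granulocyte markers 15 had a named probe, and none was well above background on all 9 arrays. Their summed signal, in units of the 75th percentile, was 2.10 to 13.8 on DP arrays, 4.79 to 7.19 on CD4 arrays and 7.52 to 15.7 on CD8 arrays. The brightest KLF4 probe, in that unit, was 6.77 to 13.5 on DP arrays, 4.28 to 7.72 on CD4 arrays and 0.802 to 1.44 on CD8 arrays. Probes differ in brightness, so its size cannot be set against that of the sums. DP array 3, where the brightest KLF4 probe was highest, had the sum of 13.8. DP array 2, where the mean level of the 7 KLF4 probes was highest, had the sum of 2.10, the lowest of the 9 arrays. These are different measures of KLF4, and nothing is read from the sums of these arrays. Of the 15, 4 were well above background on no array by any probe. Of the defining markers, CD163 and S100A8 were well above background on no array by their brightest probes. CD14 was so on 2 DP, 2 CD4 and 1 CD8 arrays, and LYZ on 3 DP, 1 CD4 and 3 CD8 arrays. CSF1R was not analysed here. Of the 6 tested none was called, with the smallest p in FCER1G for DP minus CD8 (-2.33, limma adjusted p = 0.518), AIF1 for CD4 minus CD8 (-1.95, limma adjusted p = 0.614) and S100A12 for DP minus CD4 (-1.81, limma adjusted p = 1).

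Of 11 B cell markers 3 had a named probe, and their sum was 0.437 to 2.86 on DP arrays, 1.09 to 2.31 on CD4 arrays and 5.40 to 12.4 on CD8 arrays. The 1 tested was CD79A, part of the B cell receptor complex. It stood at -0.05 ± 1.27 in DP cells, 0.17 ± 0.41 in CD4 cells and 3.15 ± 0.66 in CD8 cells (SD, n = 3 each). It was lower in DP cells than in CD8 cells (difference -3.20, SE 0.60, limma adjusted p = 0.0452). Of 7 natural killer markers 4 had a named probe. Their sum was 40.6 to 103 on DP arrays, 4.52 to 12.3 on CD4 arrays and 25.6 to 70.4 on CD8 arrays. FCGR3A made up most of that sum on every array. Its mean level was 5.87 in DP cells, 3.06 in CD4 cells and 5.14 in CD8 cells. NCR1 was well above background on no array, and KLRB1 only on 1 CD8 array. The order of the sum was not that of KLF4, but it rests mainly on FCGR3A. Of these markers KLRK1, the receptor NKG2D, was called higher in DP cells than in CD4 cells (difference 5.21, limma adjusted p = 0.00589). It was called lower in CD4 than in CD8 cells (-6.38, limma adjusted p = 0.000985). Only 1 of 3 CD4 arrays had KLRK1 well above background. It therefore passed the filter through the fractions where it is high, and these sizes are not exact. The marker lists were written with earlier results of these data known. The p-values of CD79A and KLRK1 are thus a description and no independent test. Of 10 platelet and red cell markers 4 had a named probe, with sums of 2.41 to 4.30 on DP arrays, 2.79 to 3.69 on CD4 arrays and 1.27 to 4.51 on CD8 arrays, and none was called. The part of such cells in the KLF4 values was not tested.

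The genes most like KLF4 were sought over 3309 tested named probes by Pearson r with its brightest probe over the 9 arrays. Each gene stands there by its probe with the highest r, which need not be its brightest. The arrays share the step between fractions, so this is a description. The 8 highest were HIF1A (r = 0.908), CD9 (0.904), SLC30A1 (0.897), CD40LG (0.891), SOCS2 (0.889), HSPH1 (0.889), IL6R (0.885) and ACSL3 (0.876). HIF1A, the oxygen-sensing factor, stood at 5.61, 5.63 and 5.69 on DP arrays, 5.81, 5.74 and 5.49 on CD4 arrays and 5.10, 4.92 and 4.36 on CD8 arrays. CD40LG, through which helper cells activate B cells, stood at 5.05, 4.12 and 3.19 on DP arrays, 2.68, 3.09 and 2.18 on CD4 arrays and 0.91, -0.81 and -1.35 on CD8 arrays. Both were lowest on all 3 CD8 arrays, but the step was far smaller in HIF1A. CD9, a tetraspanin, and SOCS2, which damps cytokine signals, were well above background on all DP arrays, on 1 CD4 array each and on no CD8 array.

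**Figure D5:**
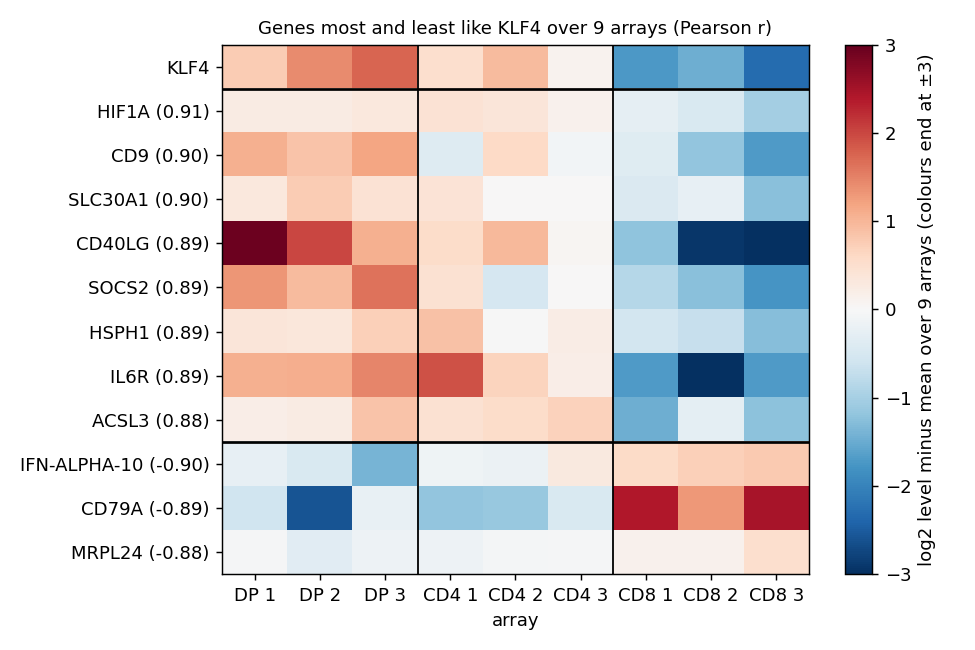
Colours show the log2 level of each gene minus its own mean over the 9 arrays (columns, by fraction) for KLF4, the 8 genes with the highest and the 3 with the lowest Pearson r with it. The CD8 columns are blue for KLF4 and the 8 genes like it and red for the 3 opposite genes.

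HSPH1, a heat shock protein gene, stood at 2.97, 2.96 and 3.33 on DP arrays, 3.49, 2.59 and 2.84 on CD4 arrays and 2.06, 1.92 and 1.34 on CD8 arrays. SLC30A1, a zinc exporter, gave 1.16 for DP minus CD8 and 0.79 for CD4 minus CD8. ACSL3, which activates fatty acids, was measured by 3 tested probes, of which another had an r of -0.547. The lowest r of any tested probe was 0.791 for HIF1A, 0.67 for CD9, 0.693 for SLC30A1 and 0.457 for SOCS2. It was 0.651 for HSPH1 and 0.779 for IL6R, while CD40LG had 1 tested probe. The probes of IL6R (A_72_P474892, not its brightest) and ACSL3 were also well above background on no CD8 array. When each array was left out in turn, 2 to 6 of the 8 genes stayed among the 8 most alike. The lowest r were those of the interferon gene IFN-ALPHA-10 (-0.904), CD79A (-0.891) and MRPL24 (-0.882), a mitochondrial ribosomal protein gene.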

How the data were processed

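Per the file headers, each array was read with Agilent Feature Extraction 11.0.1.1 for 1 colour, and the deposited processed signal is an intensity on a linear scale, corrected for background and not scaled between arrays. The authors' deposited table of log2 values, whose columns share 1 distribution, served as an alternative. In it the 3 CD8 columns follow each other's scanner files, which leaves fits without a block unchanged. Control spots and the 1 to 12 outlier spots per array were left out, and no spot was saturated. Spots of a probe were averaged on the log2 scale, and the 75th percentile of each array was subtracted. A probe was tested if well above background on every array of 1 or more fractions, with 2 or more values in each. Probes were named by unversioned RefSeq accession of Sscrofa11.1 (6730 of 43603 probes, 15.4%). The files name no build, so no coordinates are given. All 9 arrays entered 1 fit (R 4.3.3, limma 3.58.1, lmFit and eBayes with trend, two-sided, Benjamini-Hochberg at 0.05), after a test on simulated data. Python 3.11.15 and matplotlib 3.10.9 drew the figures.

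Members and gene lists were chosen with earlier results of these data known. Each gene stands by its probe with the highest mean, except in the search for genes like KLF4. There each gene stands by its probe with the highest r. Named were all members, tested family genes, per list and comparison up to 3 called genes or the one with the smallest p, the genes most and least like KLF4, and the sorting markers. Other genes named were chosen after their values were seen, and some genes under this rule are not reported here. The scanner files hold no mean spot signal, so the normexp alternative used the median.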

Additional observations from a re-analysis of the deposited data

How the results depend on the processing

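The sizes of KLF4 held better than its calls. The brightest KLF4 probe kept its direction in all 3 comparisons under all 30 alternatives, which include each other probe, each slide and each array left out. Several of these cannot move the estimate: the detection filters, the replicate blocks, the fit without a variance trend and the loss of an array outside the comparison. KLF4 was also picked for its direction against CD8 cells, so the count of 30 is a description and no support. Leaving out each array in turn gave 2.90 to 3.42 for DP minus CD8, 2.11 to 2.56 for CD4 minus CD8 and 0.57 to 1.07 for DP minus CD4. Values that moved by over 1 SD between replicates were, for DP minus CD8, 2.59, 2.63 and 3.83 by A_72_P584906, A_72_P672762 and A_72_P538303 and 4.07 within slide 3. For CD4 minus CD8 they were 1.76, 3.29 and 3.13 by A_72_P672762, A_72_P538303 and A_72_P303164. The values of A_72_P538303 and A_72_P303164 are set against CD8 signals at or near background and are not exact sizes. For DP minus CD4 they were 0.01 by A_72_P303164 and 1.46 within slide 3. The 4 KLF4 probes called for DP minus CD8 became 2 with quantile normalization and 1 with the processed table. They became 1 with only probes well above background on all 9 arrays and 0 with slide as a fixed block. Over all tested probes the 50 calls there became 39, 24, 5 and 2 in the same order. The 1 KLF4 probe called for CD4 minus CD8 became 2 without a filter or with slide as a random block. It became 0 with only probes well above background on all arrays or with slide as a fixed block. The 70 calls over all tested probes became 97, 76, 12 and 38 in that order. Leaving out each array in turn gave 0 to 3 and 0 to 2 KLF4 probes in these comparisons. Over all tested probes it gave 1 to 51 and 31 to 83. With the filter to all 9 arrays 5 KLF4 probes and fewer other probes were tested. The cause of the other shifts was not tested.

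The replicate block called 6 KLF4 probes for DP minus CD8 and 2 for CD4 minus CD8. It called 1 and 0 where the numbers of the CD8 arrays were taken from the processed table. With those numbers 21 and 50 of all tested probes were called. Same-numbered arrays mostly deviated together, but not always (r from -0.067 to 0.647 over 9 pairs). Pairs with different numbers were mostly below 0, from -0.572 to 0.424. DP array 2 followed CD4 array 1 (r = 0.424) more than CD4 array 2. No label calls the numbers a pairing, so the main fit does not use them, and whether they mark one stays unsettled. STMN1 passed by its brightest probe for CD4 minus CD8 under the replicate block (limma adjusted p = 0.0385). The block called 144, 83 and 110 probes of all tested for DP minus CD4, DP minus CD8 and CD4 minus CD8. Over all probes, the 47 calls for DP minus CD4 ranged from 2 to 144 over the alternatives, the 50 for DP minus CD8 from 1 to 87 and the 70 for CD4 minus CD8 from 12 to 110. Genes called in the lists on pathways ranged from 0 to 2 for DP minus CD8, 0 to 3 for CD4 minus CD8 and 0 to 1 for DP minus CD4.

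KLF2 passed under no alternative, with adjusted p from 0.743 to 1, and its small differences changed sign. For DP minus CD4 the brighter probe gave -0.31 with slide as a fixed block, and without each array in turn -0.17 to 0.26. Without each array it gave -0.31 to 0.61 for DP minus CD8 and -0.40 to 0.52 for CD4 minus CD8. The dimmer probe gave -0.21 with slide as a fixed block for DP minus CD4, and without each array in turn -0.18 to 0.21, 0.04 to 0.95 for DP minus CD8 and -0.01 to 0.90 for CD4 minus CD8.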

Other observations

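KLF17, a factor known from germ cells and early embryos, had 1 probe on the array, well above background on all 9 arrays. It stood at 7.42 ± 0.29 in DP cells, 7.29 ± 0.27 in CD4 cells and 7.35 ± 0.38 in CD8 cells (mean ± SD, n = 3 each), and no comparison passed (limma adjusted p of 1, 1 and 0.999). Its 3 fractions overlapped. No second KLF17 probe was there to set beside it, and whether its signal came from KLF17 RNA was not tested.

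With the fraction means taken out, the genes most like KLF4 over the 9 arrays were DRAM2 (r = 0.897), SRSF11 (0.888), UIMC1 (0.882), DNMT1 (0.878) and FKBP1A (0.878). None of these 5 was among the 8 most like KLF4 with the fractions left in. The lowest r of any tested probe was 0.252 for DRAM2, 0.281 for SRSF11 and 0.358 for UIMC1. For DNMT1, the maintenance DNA methyltransferase, and FKBP1A, an immunophilin, another probe of the same gene had an r of -0.603 and -0.490. CD4, itself a sorting marker, had an r with KLF4 of 0.868 over the 9 arrays and of -0.114 with the fraction means taken out.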
